A study of Mus musculus with 2 samples.

Results

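Hairpin genes numbered Mir3000 and above were late additions to the mouse microRNA catalogue. They were examined here in microRNA-seq data from the adrenal gland. Members were selected on measured values: a gene belonged if its GENCODE M21 name was Mir followed by a number of at least 3000 and it had at least 1 sense-strand count in either library. Of 2202 microRNA genes in the tables, 559 carried such a number and 297 of those had reads, 223 in replicate 1 and 250 in replicate 2. That rule fixes the presence of reads, so presence is not a result. The tissue came from male B6CASTF1/J mice, a first-generation hybrid strain, aged 25 days. There was 1 group of 2 biological replicates with no treatment, no other tissue and no control group, so every comparison below is between genes or between these 2 libraries. The labels number the animals separately but name the same donor entry for both. SDs and p-values thus cover no more than the difference of these libraries, part of which may be technical.

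A microRNA is cut from a hairpin by Drosha in the nucleus and Dicer in the cytoplasm, and the seed near its 5′ end, bases 2 to 8, guides Argonaute to target messages. Some hairpins bypass Drosha. Mirtrons are hairpins whose ends are set by splicing, so that the hairpin is a whole short intron, and tailed mirtrons share only 1 end with the intron. Numbers are assigned in order of registration, so high numbers mark hairpins found by deep sequencing after the abundant, widely conserved families had been named. The adrenal gland makes steroid hormones in its cortex and catecholamines in its medulla.

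The mature sequences of the leading members are shown first because their seeds identify them. Sequences come from RefSeq (GRCm38.p6, the build of the tables), 5′ to 3′, with the seed in capitals. Mir3102 (chr7:100882306-100882409, minus strand) has 4 RefSeq mature products, and Mir3068 (chr12:87437679-87437757, minus strand), Mir3072 (chr12:109747878-109747960, plus strand) and Mir3099 (chr7:6803587-6803670, plus strand) have 1 from each arm.
mmu-miR-3102-5p: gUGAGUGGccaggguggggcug
mmu-miR-3102-5p.2-5p: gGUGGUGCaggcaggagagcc
mmu-miR-3102-3p.2-3p: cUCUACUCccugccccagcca
mmu-miR-3102-3p: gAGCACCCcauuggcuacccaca
mmu-miR-3068-5p: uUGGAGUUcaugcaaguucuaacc
mmu-miR-3068-3p: gGUGAAUUgcaguacuccaaca
mmu-miR-3072-5p: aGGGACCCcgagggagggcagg
mmu-miR-3072-3p: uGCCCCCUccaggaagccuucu
mmu-miR-3099-5p: cCAGCUUCcuuccagcccuug
mmu-miR-3099-3p: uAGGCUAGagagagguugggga
The counts are per hairpin gene, so they do not say which of these products was sequenced.

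A second set shows a feature found in many members, an end on a splice site. In these 4 RefSeq hairpins the capitals mark the intron's first GU, where the hairpin starts with it, and the intron's last AG. Mir3547 (chr17:25245551-25245638, minus strand, Baiap3) and Mir6944 (chr13:55477681-55477776, minus strand, Dbn1) are whole introns. Mir7083 (chr9:21809941-21810000, minus strand, Dock6) and Mir6989 (chr19:6346480-6346544, plus strand, Map4k2) end at the last base of introns of 1833 and 77 bases.
Mir3547: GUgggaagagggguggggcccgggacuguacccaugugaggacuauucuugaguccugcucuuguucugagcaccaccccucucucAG
Mir6944: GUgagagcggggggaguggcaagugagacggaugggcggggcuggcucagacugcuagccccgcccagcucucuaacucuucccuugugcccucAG
Mir7083: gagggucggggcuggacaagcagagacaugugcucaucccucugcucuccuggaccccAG
Mir6989: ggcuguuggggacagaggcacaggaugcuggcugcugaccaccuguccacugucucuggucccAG
In all of them the final bases are the splice acceptor of the host intron.

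The last set shows members that lie base for base opposite a better-known hairpin. Seeds are again in capitals. Each member is followed by its partner on the other strand.
mmu-miR-3544-5p: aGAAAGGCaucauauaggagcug
mmu-miR-3544-3p: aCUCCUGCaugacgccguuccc
mmu-miR-337-5p: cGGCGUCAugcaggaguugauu
mmu-miR-337-3p: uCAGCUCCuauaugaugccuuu
mmu-miR-3065-5p: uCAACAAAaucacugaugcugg
mmu-miR-338-5p: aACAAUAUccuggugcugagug
mmu-miR-338-3p: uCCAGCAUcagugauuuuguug
mmu-miR-3074-5p: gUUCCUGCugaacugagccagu
mmu-miR-24-1-5p: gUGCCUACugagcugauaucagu
mmu-miR-24-3p: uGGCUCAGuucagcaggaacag
The paired hairpins share 61 bases (Mir3544 and Mir337), 87 bases (Mir3065 and Mir338) and 68 bases (Mir3074-1 and Mir24-1), read in opposite directions, yet no seed printed for a member equals one printed for its partner.

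Levels are sense counts per 1000000 counts assigned to microRNA genes (CPM). Replicate 1 had 3588361 such counts and replicate 2 had 4541373, which were 41.4% and 44.2% of the input reads. In replicate 1 a single count was worth 0.279 CPM and the floor of 3 counts, the upper limit that a count of 0 allows, was 0.836 CPM. The same quantities were 0.220 CPM and 0.661 CPM in replicate 2. These limits, like all intervals given here, cover counting error only, and copies made by PCR were not marked by molecular identifiers. The libraries differed in markers of other organs. Summed liver markers stood at 949 CPM in replicate 1 and 198916 CPM in replicate 2, with Mir122 alone taking 0.0892% and 19.8% of all counts. Striated muscle markers went the other way, from 993 CPM to 0.661 CPM, which is the floor of replicate 2. Of these 6 markers 1 had counts in both libraries, and Mir133b and Mir133a-2 were at 0 in both. Leukocyte markers stood at 2280 and 1077 CPM, smooth muscle markers at 49552 and 31949 CPM and red blood cell markers at 1542 and 1297 CPM. Endocrine and chromaffin markers were high in both, at 40087 and 33767 CPM, as was the 1 endothelial marker, at 62826 and 60799 CPM. Whether these other organs contributed to the levels of the late-numbered hairpins was not tested. In bulk tissue, fewer cells of a type and less RNA per cell cannot be told apart.

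Late-numbered hairpins were numerous and scarce. The 297 members were 39.7% of all genes with reads but held 2879 counts in replicate 1 and 4174 in replicate 2. These were 0.0802% (exact 95% interval 0.0773 to 0.0832) and 0.0919% (0.0891 to 0.0947) of the counts, a mean of 0.0861% ± 0.00826 (SD, n = 2). With Mir122 left out of the totals the shares were 0.0803% and 0.115%. These are the counts that chose the members, and the difference between the libraries is given as a description. The median member had 4 counts over both libraries, or 0.470 CPM, below the floor of either library. The median of the 452 other genes with reads was 314.5 counts, or 38.2 CPM. Among members, 80 (26.9%) reached 10 counts over both libraries and 13 reached 100. Of the other genes with reads, 340 (75.2%) reached 10 and 275 reached 100.

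At the edge of the rule, 262 late-numbered genes had 0 counts, 68 had 1 count, 51 had 2 and 25 had 3. Genes with a single count included Mir3091, Mir3106, Mir5098 and Mir6945. Reads in both libraries were seen for 176 of the 297 members, while 47 had them in replicate 1 alone and 74 in replicate 2 alone. Of the 452 other genes with reads, 391 had them in both, 33 in replicate 1 alone and 28 in replicate 2 alone. A gene with 1 count can be in only 1 library, and 68 members had 1 count. Other members seen in 1 library alone had more, as Mir7046 did with 0 and 13 counts. The split as a whole was not tested and does not show a difference between animals.

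**Figure D1:**
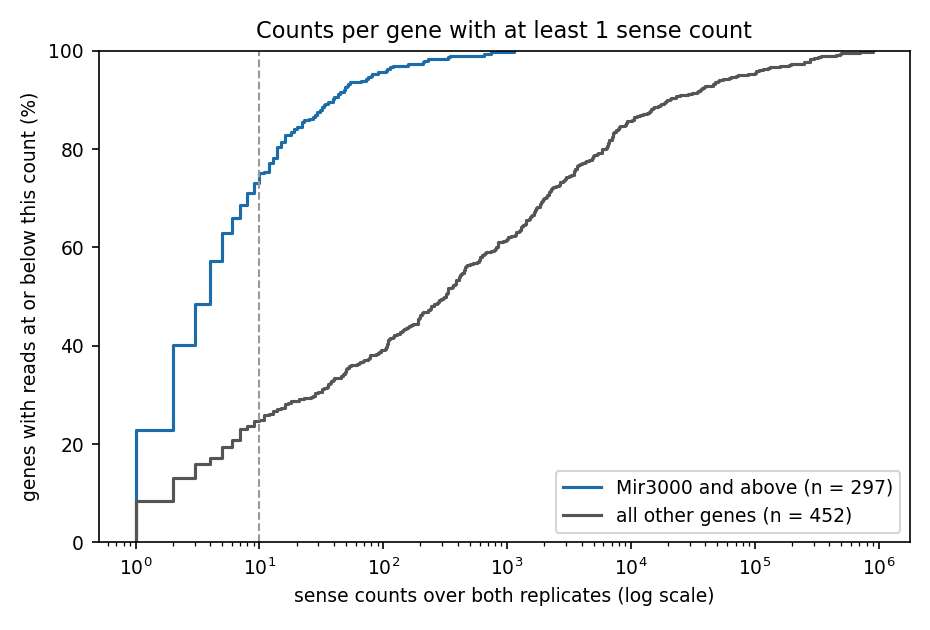
Cumulative share of genes with reads (vertical axis, %) at or below a given sense count summed over both replicates (horizontal axis, log scale), for the 297 hairpins numbered Mir3000 and above and the 452 other genes. The dashed line marks 10 counts, which 26.9% of the late-numbered hairpins and 75.2% of the others reached.

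Counts were concentrated in few members. Mir3102 alone held 15.7% and 16.7% of the members' counts in replicates 1 and 2, and the 10 most abundant members held 58.2% and 59.5%. In replicate 1, 7 genes were enough for 50% of the members' counts and 73 for 90%, and in replicate 2, 6 and 69 were. The leading members did not stand near the top of the whole table: Mir3102 ranked 171 of 2202 genes by mean level, Mir5099 ranked 187 and Mir3068 ranked 189.

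Mir3102 (ENSMUSG00000093296.1) fills an intron of 104 bases in the protein-coding gene Arhgef17. It had 453 counts (126 CPM) in replicate 1 and 695 counts (153 CPM) in replicate 2, a mean of 139.6 CPM ± 18.9 (SD, n = 2). RefSeq's mmu-miR-3102-5p begins at the first base of that intron. Mir5099 (ENSMUSG00000092998.1; chromosome 12, 36816205 to 36816278, plus strand, outside annotated genes) had 338 counts (94.2 CPM) and 399 counts (87.9 CPM). Its levels in the libraries were the closest among the 4 leading members, with a mean of 91.0 CPM ± 4.48. Mir3068 (ENSMUSG00000105428.1) lies in an intron of Alkbh1, which encodes a demethylase of nucleic acids, and had 253 counts (70.5 CPM) and 404 counts (89.0 CPM). Its interval also carries a second annotated gene of the same name classed as a small nucleolar RNA (snoRNA).

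A gap of about 2-fold separated these 3 hairpins from the fourth: Mir3068 averaged 79.7 CPM ± 13.0 and Mir3072 41.6 CPM ± 16.2. Mir3072 (ENSMUSG00000093351.1), in an intron of the long noncoding RNA Mirg, had 108 counts (30.1 CPM) and 241 counts (53.1 CPM). Mir6236 (ENSMUSG00000098973.1; chromosome 9, 110281287 to 110281409, plus strand, outside genes) followed with 127 counts (35.4 CPM) and 206 counts (45.4 CPM). Mir3072 lay below Mir6236 in replicate 1 and above it in replicate 2, so these neighbours have no fixed order. The next 3 were as close: Mir5121 averaged 28.1 CPM ± 5.08, Mir6516 27.0 CPM ± 6.39 and Mir3099 26.2 CPM ± 3.48. Each of these differences is smaller than the SDs.

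Mir5121 (chromosome 7, 45126918 to 45126991, minus strand) starts 1 base outside an intron of Rpl13a, a ribosomal protein gene, and overlaps the snoRNA gene Snord33. Mir6516 (chromosome 11, 117077348 to 117077457, plus strand) lies in an exon of the noncoding host gene Snhg20 and overlaps Gm26083, annotated as a small Cajal body RNA. With Mir3068 and Mir3069, which overlaps Scarna13, they make 4 members that share bases with another annotated small RNA on the same strand. Those 4 held 465 counts (16.2% of the members' total) in replicate 1 and 664 counts (15.9%) in replicate 2. Reads of the hairpin and of the overlapping small RNA cannot be told apart in these counts.

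Among the remaining members of the 25 most abundant, Mir3099, in an intron of the imprinted gene Usp29, had 103 and 108 counts. Mir6538, in an intron of the ubiquitin ligase gene Rnf144a, had 41 and 117 counts. Mir8114 had 51 and 69 counts and Mir8112 had 41 and 72. The former crosses the boundary of a 5′ untranslated exon of the glutamine synthetase gene Glul, the latter that of one of Krcc1. Mir8112 also shares bases with other hairpins and with transcripts elsewhere, so its counts may be incomplete. Mir3547 averaged 12.7 CPM ± 5.37 from 32 and 75 counts. From rank 14 on, means ran from 11.5 CPM for Mir3065 down to 5.78 CPM for Mir5122. That range held Mir3074-1, Mir3076, Mir3544, Mir3058, Mir3067, Mir5113, Mir7688, Mir3064, Mir3070a and Mir5126, and their levels fall off without a further gap of the size seen after Mir3068. The gene named mmu-mir-3535, whose form of name falls outside the rule, would have led the list with 690 and 722 counts (a mean of 176 CPM ± 23.6). It is named after its values were seen.

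**Figure D2:**
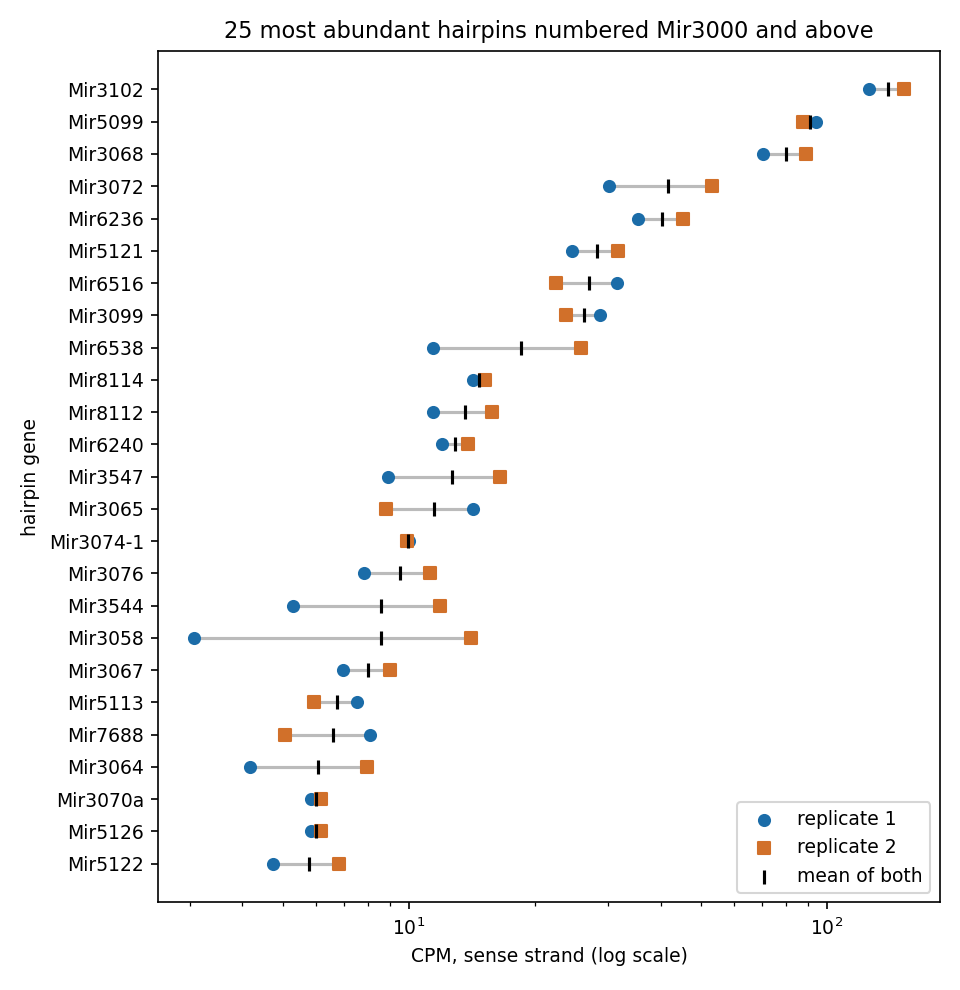
Levels of the 25 most abundant hairpins numbered Mir3000 and above (vertical axis) in CPM (horizontal axis, log scale), with a circle for replicate 1, a square for replicate 2 and a tick for the mean. Mir3102, Mir5099 and Mir3068 stand apart above 70 CPM in both libraries, and the gap between libraries is widest at Mir3058, with 3.07 and 14.1 CPM.

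Position relative to annotated genes set the late-numbered hairpins apart from the rest as a description of the annotation. Hairpin ends within 10 bases of an intron end on the same strand were counted as lying at that end. Of the 297 members, 13 matched a whole intron, 148 lay at the 3′ end of an intron and 7 at the 5′ end. Together these were 168 members (56.6%), against 73 of the 262 late-numbered genes without reads (27.9%) and 13 of the 452 other genes with reads (2.88%). A further 59 members lay inside an intron, 35 in an exon or across its boundary, 16 on the opposite strand of a gene and 19 outside genes. Intron ends took precedence, so a hairpin at one was counted there even where it also overlaps an annotated exon, as Mir5121 and Mir3064 do. Host genes on the same strand were annotated for 262 members, 257 of them protein-coding, and only Srebf1, a regulator of lipid synthesis, held 2 members (Mir6921 and Mir6922, with 6 counts between them).

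The agreement with splice sites was exact for most. At the 3′ end, 128 of the 148 hairpins stopped on the last base of the intron, and all 128 ended in AG. At whole introns, 10 of the 13 matched both ends to the base. Of those 10, 9 ran from GU to AG. Over all members 152 (51.2%) ended in AG, against 27.1% of the late-numbered genes without reads and 8.85% of the other genes with reads. Among the exactly placed members, 130 had RefSeq mature products, and in 101 (77.7%) a mature product itself ended on the last base of the intron. The introns of the members at 3′ ends had a median of 545 bases (75 to 36269), so the stretch 5′ of the hairpin was usually long, with a median of 478 bases. In 42 it was at most 100 bases. These are properties of the annotated coordinates, and the files hold no read positions, so fragments of unspliced host transcripts and processed microRNAs cannot be told apart here.

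**Figure D3:**
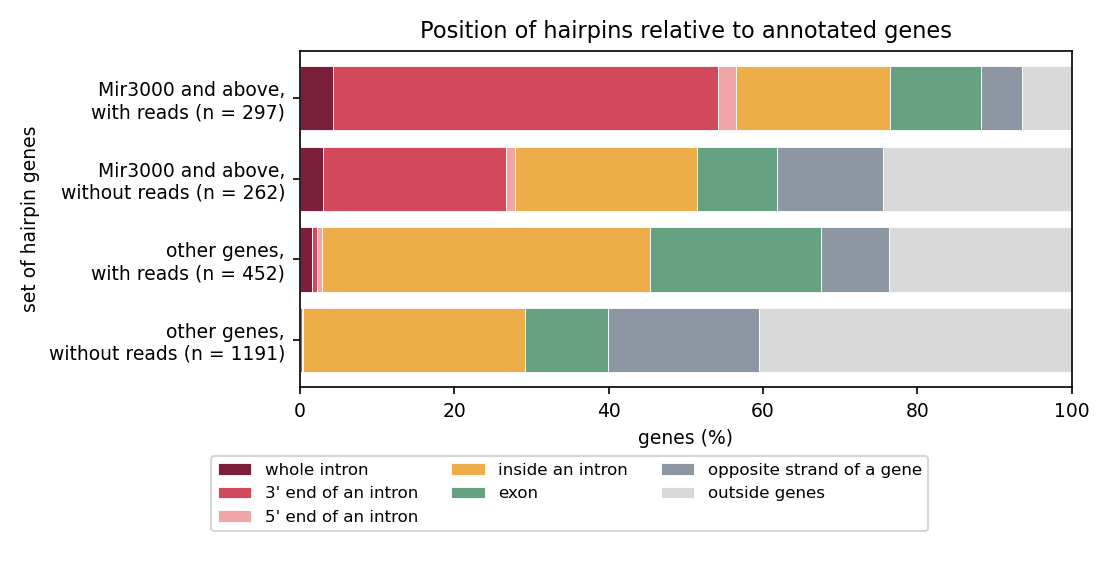
Position of hairpins relative to GENCODE M21 genes, as the percentage of genes (horizontal axis) in each of 7 position classes, for 4 sets of hairpin genes. Red shades mark hairpins at an intron end, which make up 56.6% of the 297 late-numbered hairpins with reads and 2.88% of the 452 other genes with reads.

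Intron-end hairpins were many but scarce, and 92 of the 168 had 1 to 3 counts. The median was 3 counts at 3′ ends and 2 for whole introns, against 4 inside introns, 6 in exons and 8 outside genes. They were 56.6% of members but held 33.8% and 35.2% of the members' counts in replicates 1 and 2, and Mir3102 supplied 453 of their 972 counts in replicate 1 and 695 of their 1469 in replicate 2. Among whole-intron hairpins the count fell steeply from Mir3102 to Mir3547 (32 and 75) and then to Mir6944 in Dbn1, the gene of the actin-binding protein drebrin, with 4 and 9. The other 10 had at most 9 counts over both libraries. At 3′ ends Mir3076 in Tkt, the transketolase gene, led with 28 and 51 counts, followed by Mir3064 in Ddx5, an RNA helicase gene, with 15 and 36. Both run 1 base past the intron. The 19 members outside genes held 22.1% and 20.0% of the members' counts, most of it from Mir5099 and Mir6236.

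The 35 members counted in exons leave out those at an intron end that also overlap an exon. Of the 35, 9 lay in a 3′ UTR, 12 in a 5′ UTR and 8 in coding sequence. A further 4 lay across more than 1 of these parts and 2 in noncoding exons. Those in 5′ UTRs held the most, 143 and 242 counts, led by Mir8114 and Mir8112, which both cross an exon boundary. Mir5113, in the 3′ UTR of Tnrc6b, which encodes a partner of Argonaute, had 27 counts in each library.

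Blocks of numbers differed in where the hairpins lie. Of the members numbered in the 6000s, 74 of 85 (87.1%) were at an intron end, and of those in the 7000s 73 of 102 (71.6%). The shares were 14 of 58 (24.1%) in the 3000s, 7 of 36 (19.4%) in the 5000s and 0 of 16 in the 8000s. The order by counts was different. Members in the 3000s held 48.8% and 52.1% of the members' counts with a median of 11, whereas the 6000s held 17.1% and 16.4% and the 7000s 8.44% and 8.05%, each with a median of 3. The 5000s held 21.2% and 18.7%, and the 8000s 4.45% and 4.72%.

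Members were also shorter than other hairpins with reads. Their median annotated length was 69 bases (quartiles 62 and 82) against 84 (73 and 97), and 56.6% were at most 70 bases long against 19.9%. Median GC content was 55.6% against 50.0%. Folding energy per base, predicted from sequence, was close in both sets, with medians of -0.413 and -0.427 kcal per mol and base, and weaker at -0.352 in late-numbered genes without reads. Only 5.72% of members had another annotated hairpin within 10 kb on the same strand, against 46.7% of other genes with reads. Few thus belong to same-strand clusters. Near-identical copies were also uncommon: 13 members (4.38%) shared at least 20 bases with another hairpin, against 26.8%. A read with more than 1 place in the genome was counted for no gene, so such hairpins are undercounted by an unknown amount.

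Seeds were mostly not shared. RefSeq held mature products for 74 of the 80 members with at least 10 counts, with 122 distinct seeds over 125 mature products. A seed in common with a gene outside the set that had at least 10 counts was found for 5 of those 74 (6.76%). A seed in common with another member, whatever its count, was found for 7. Of 298 other genes with at least 10 counts, 142 (47.7%) shared a seed with another of those. That last figure counts sharing within a set, so it is not a like measure to the 6.76%. The 5 that shared one outside the set were Mir3102 with Mir702, Mir5129 with Mir455, Mir6240 with Mir330, Mir6915 with Mir540 and Mir7069 with Mir18. All 5 partners are outside the naming rule and were named after their values were seen. Mir455 averaged 1258 CPM, against 18 counts in all for Mir5129. A shared seed is a match of 7 letters and says nothing of which product was present.

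Strand assignment was clean away from opposite-strand hairpins. At the 290 members without an annotated hairpin facing them, the sense share was 99.7% in replicate 1 and 99.8% in replicate 2. Antisense counts there came to 7 and 6 in all, and none had more than 3 antisense counts in a library. The 7 members with such a partner had more antisense than sense counts as a group, 5526 against 140 in replicate 1 and 8374 against 192 in replicate 2. In every one of them the antisense count equalled the partner's sense count. The either-strand column was 0 at all 7, so they are seen only in the sense column.

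Mir3544 had 19 sense counts in replicate 1 and 54 in replicate 2, while its strand partner Mir337 had 4336 and 5971. Mir3065 had 51 and 40 against 598 and 1454 for Mir338, a hairpin known from neurons and glia. Mir3074-1 had 36 and 45 against 108 and 174 for Mir24-1. The member was the scarcer strand in each of these by counted reads. The ratio between the strands differed between Mir3544 and Mir3065. Sense reads were 0.436% and 0.896% of the reads at Mir3544, and 7.86% and 2.68% at Mir3065. At Mir3074-1 they were 25.0% and 20.5% of the counted reads. Mir3074-1 shares at least 20 bases with Mir3074-2, which lies opposite Mir24-2. Reads that fit both places were counted for neither, so the shares at Mir3074-1 cannot be set beside those of the other pairs. Mir3107, with 16 and 15 sense counts, lies opposite Mir486, a hairpin abundant in red blood cells, with 196 and 225. These 2 hairpins also share at least 20 bases read in the same direction. Reads of such a stretch fit both strands, so this split between the strands is uncertain. Mir3071 had 3 and 1 against 273 and 513 for Mir136. In the remaining pair both strands are late-numbered: Mir3073a had 12 and 31 counts and Mir3073b 3 and 6.

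**Figure D4:**
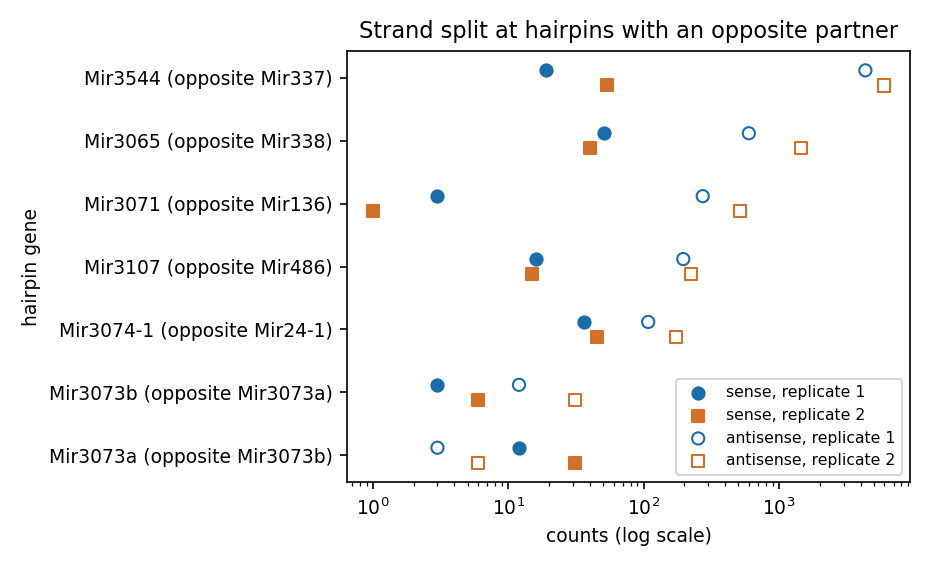
Sense (filled) and antisense (open) counts on a log scale at the 7 late-numbered hairpins with an annotated hairpin on the opposite strand, named on the vertical axis, in replicate 1 (circles) and replicate 2 (squares). Antisense exceeds sense at 6 of the 7, the exception being Mir3073a with 12 and 31 sense counts.

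The imprinted Dlk1-Dio3 region of chromosome 12 contributed 5 members of 5 annotated late-numbered genes. Its maternally expressed microRNA clusters are typical of embryonic, neural and endocrine tissue, but not all 5 members lie on the strand of those clusters. Mir3070a, Mir3070b and Mir3072 lie on the plus strand, as do Mir337, Mir541 and Mir410. Mir3544 and Mir3071 lie on the minus strand, opposite Mir337 and Mir136, and Mir3071 is in coding sequence of Rtl1. Mir3544, Mir3070a, Mir3070b, Mir3071 and Mir3072 together had 176 counts in replicate 1 (6.11% of the members' counts) and 344 in replicate 2 (8.24%). Mir3072 led with 349 counts over both libraries. Mir3070a had 21 and 28 counts and Mir3070b 25 and 20, and these share bases with each other. Their level order was Mir3072, Mir3544, Mir3070a, Mir3070b and Mir3071, with Mir3544 (8.59 CPM ± 4.66), Mir3070a (6.01 ± 0.222) and Mir3070b (5.69 ± 1.81) not separated by more than their SDs. Lower-numbered hairpins near Mir3072 covered a wide range, with 4544 CPM ± 1224 for Mir541 and 41.8 CPM ± 11.5 for Mir410, which was above Mir3072 in replicate 1 (49.9 CPM) and below it in replicate 2 (33.7 CPM).

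A list of 20 names covered hairpins thought to resemble repeats or abundant structural RNAs, of which 16 were annotated here. Mir5099, Mir6236, Mir6240 and Mir5100 had 737, 333, 106 and 12 counts over both libraries. Of the Mir3473 family, Mir3473g had 3 counts and Mir3473c and Mir3473d had 1 each. Mir3473a, Mir3473b, Mir3473e, Mir3473f, Mir3470a, Mir3470b, Mir3471-1, Mir3471-2 and Mir3963 had none. All but the last of these share 20-base stretches with many other transcripts. Over all members 28 have such a stretch in transcripts elsewhere in the genome, and they held 11.0% and 11.2% of the members' counts.

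The 2 libraries were then compared gene by gene with an exact two-sided binomial test of the sense counts against the library totals, adjusted by Benjamini-Hochberg over all 420 genes with at least 10 counts. It compares these libraries and not conditions. Of the 80 members tested, 16 (20.0%) were called at an adjusted p under 0.05, where the background over all tested genes was 60.0%. By direction 13 of the 80 members were called higher in replicate 2 and 3 of the 80 in replicate 1. The backgrounds were 119 (28.3%) and 133 (31.7%) of all 420 tested genes. Low counts limit this test. With 10 to 99 counts, 9 of 67 members (13.4%) and 25 of 65 other genes (38.5%) were called. With at least 100 counts the figures were 7 of 13 (53.8%) and 211 of 275 (76.7%). On the log2(CPM + 1) scale 68 of the 80 members (85.0%) lay within 2-fold, and 44 of 80 were higher in replicate 2.

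Because Mir122 took 19.8% of the counts of replicate 2, the totals matter for direction. With Mir122 left out of them, the median difference of all tested genes (replicate 2 minus replicate 1, log2 scale) moved by 0.29, from -0.02 to 0.27. The members' median was then 0.30, and 52 of 80 were higher in replicate 2. Calls became 19 of the 80 members, while those over all 420 tested genes rose from 252 to 272. Of the 19, 18 were higher in replicate 2 (94.7%, against 81.2% of the 16). A member's own difference should thus be read against the median of all genes on the same scale, and small differences among the abundant members change sign with the totals, as at Mir5099 (-0.10 and 0.21) and Mir3099 (-0.26 and 0.04).

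The widest differences were at members with few counts. Mir3058, in an intron of Nudt4, a diphosphoinositol phosphatase gene, had 11 counts (3.07 CPM) in replicate 1 and 64 counts (14.1 CPM) in replicate 2, a ratio of 4.60 (95% interval 2.41 to 9.67, exact binomial test, adjusted p = 2.02e-07). Mir7083, the hairpin of Dock6 shown above, had 2 and 27 counts, a ratio of 10.7 with the wide interval of 2.68 to 92.6. Mir7658, in coding sequence of Plekhn1, had 1 and 15 counts (interval 1.82 to 499). Mir7046, at the 3′ end of an intron of Rabac1, had 0 and 13 counts, and the exact 95% interval of its ratio had a lower limit of 2.41 and no upper one. Mir3105, in an intron of the postsynaptic scaffold gene Shank2, had 6 and 28 counts, and Mir5133, in the 5′ untranslated exon of Glce, 2 and 12. Mir5618, in an intron of Tmem123, went the other way with 12 and 3 counts (exact binomial test, adjusted p = 0.0132).

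Among members with over 100 counts the called differences were smaller. Mir6538 was 2.25-fold higher in replicate 2 (interval 1.57 to 3.30), Mir3547 1.85-fold (1.21 to 2.90) and Mir3072 1.76-fold (1.40 to 2.23). Mir6236, Mir3068 and Mir3102 were 1.28-fold, 1.26-fold and 1.21-fold higher. Mir6516 was lower in replicate 2, with a ratio of 0.713 (0.540 to 0.941). Among those with fewer counts, Mir3544 (73 in all) was higher in replicate 2 and Mir3065 (91 in all) lower, with ratios of 2.25 (1.31 to 4.01) and 0.620 (0.399 to 0.956). Some of these calls rest on the setting. With totals without Mir122 the exact binomial test gave adjusted p = 0.489 for Mir6516 and 0.323 for Mir3065, and with no minimum count it gave 0.0785 for Mir3065, 0.0813 for Mir6236 and 0.0862 for Mir5133. Either-strand counts gave 0.0761 for Mir6236 and 0.0516 for Mir5133 in that exact test, and DESeq2 size factors gave 0.0563 for Mir3065. Mir338, opposite Mir3065, stood at 166.6 CPM in replicate 1 and 320.2 CPM in replicate 2, so the strands of that pair lay on different sides of equal levels. The difference between them was not tested. The liver, striated muscle, leukocyte and smooth muscle markers given above differed between the same libraries, and their part in these differences was not tested.

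**Figure D5:**
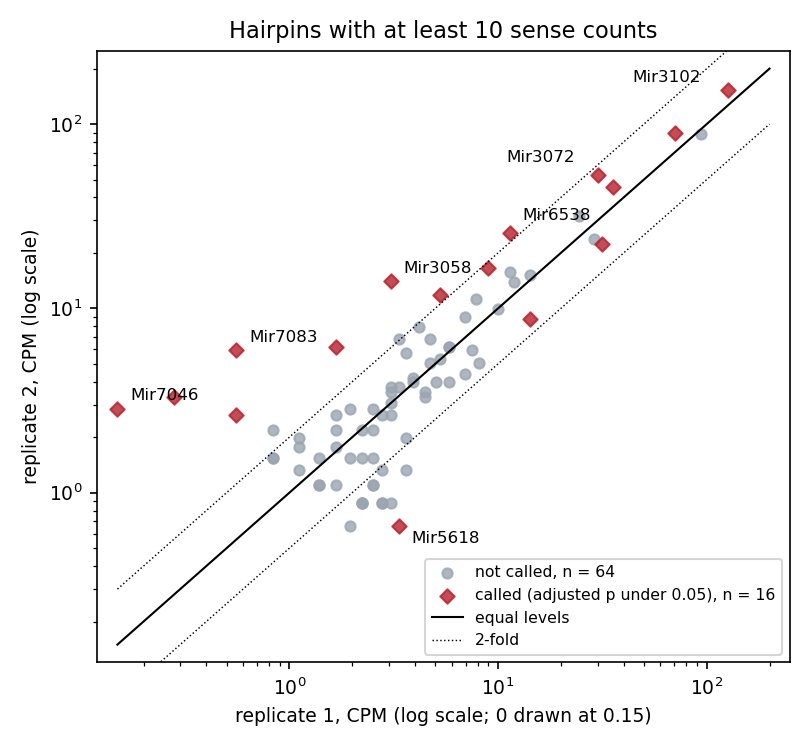
Levels of the 80 late-numbered hairpins with at least 10 counts in replicate 1 (horizontal axis) and replicate 2 (vertical axis), both in CPM on log scales, with called genes as red diamonds and the others as grey circles. Of the 16 called, 13 lie above the line of equal levels, and 7 of those called have at least 100 counts.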

How the data were processed

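MicroRNA-seq of adrenal gland gave 1 table per library for 2 libraries. The deposited tables hold raw counts per microRNA gene, made by the authors on mm10 with GENCODE M21 per the text files beside the tables. For the aligner and trimming: not given in the sources used here. There are 3 count columns, which by their values are either-strand, sense and antisense. The 4 summary lines name no gene and were left out of totals. In them, 31.6% and 27.0% of input reads were mapped to several places, which are not counted per gene.

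Sense counts were scaled to CPM, with a pseudocount of 1 CPM for log2 differences. Total counts were 3588361 and 4541373. Hairpins were placed against GENCODE M21, ends within 10 bases of an intron end counting as at that end, and sequences came from RefSeq, which held mature products for 276 of 297 members. Shares and ratios carry exact 95% intervals. The exact binomial test used a minimum of 10 counts over both libraries and Benjamini-Hochberg adjustment over all genes, and was tested on simulated data. Alternatives were edgeR 4.0.16 TMM factors, DESeq2 1.42.0 size factors, other count minimums and pseudocounts, totals without Mir122 or of all input reads, either-strand counts, other distances to intron ends, and each library left out. Tests ran in scipy 1.17.1 under Python 3.11.15.

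The members and lists were chosen with earlier results of these data known. Named genes were the 25 members with the highest mean, up to 10 called members with the widest ratio, the 5 with most antisense counts, members with an opposite-strand hairpin or of whole-intron type with at least 10 counts, members with reads from the list of repeat-like hairpins, and examples with 1 count or none.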

Additional observations from a re-analysis of the deposited data

How the results depend on the processing

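The number of members depended on the count required: 157 had at least 3 sense counts in a library and 61 at least 10, against 297 with at least 1. It was 292 by either-strand counts and 223 to 250 with 1 library left out. The members' share of counts was 0.0974% with totals without Mir122, 0.0369% of all input reads, 0.0976% by either-strand counts and 0.0721% without Mir3102, and 0.0802% to 0.0919% with 1 library left out. The median level was 3.27 CPM over members with at least 10 counts, and 0.440 to 0.557 CPM with 1 library left out. Whole-intron members were 28 when ends within 20 bases counted and 11 within 5 bases, while members at any intron end were 155 to 170. With any antisense count in place of more than 3, 14 members had antisense reads rather than 7. Called members were 11 to 19 under all alternatives tried, and 9 to 18 of them were higher in replicate 2. The number tested differed, so these counts are not on 1 scale. With at least 10 counts in each library 11 of 42 members were called, and 236 of all 352 genes. With no minimum it was 15 of 297 members and 245 of all 749 genes. Totals without Mir122 gave 19 of 80 members and 272 of all 420 genes. Pseudocounts of 0.1 and 10 moved log2 differences of 8 and 10 of the 39 named members. No paired analysis was possible because there is only 1 group. Depth limits many members: at 1 to 3 counts neither absence from a library nor a difference between libraries can be shown, and levels at hairpins sharing bases with others are undercounted.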
